A study of Homo sapiens with 8 samples.

Results

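The genes described here are MYC, MYCN, MYB and the dimerization network around MAX in 2 human T-cell acute lymphoblastic leukemia (T-ALL) cell lines. They were chosen by name, as the rows MYC, MYCN, MYB, MAX, MXD1, MXD3, MXD4, MXI1, MNT and MIR17HG of the gene count files, which makes 10 genes of the 57189 listed. All 10 passed the filter on low counts that left 13280 genes for testing. The groups were CUTLL1 cells treated with PKF118-310 at 1 µM for 24 h, CUTLL1 control cells, TIB153 cells treated with PKF118-310 at 1 µM for 24 h, and TIB153 control cells. The study describes its controls as placebo-treated, and their labels give no dose or time. In a separate viability assay at this dose and time, it reports reduced viability of both lines. PKF118-310 is a small molecule that inhibits transcription driven by β-catenin and its TCF partners. CUTLL1 carries a translocation that joins NOTCH1 to the T-cell receptor β locus. Each line is a single established culture, and each group was 1 poly(A)-selected library sequenced in 2 lanes.

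MYC is a transcription factor that binds DNA as a dimer with MAX, at sites called E-boxes, and drives ribosome production, nucleotide synthesis and cell growth. The MXD proteins, MXI1 and MNT compete for the same partner and, through the SIN3 corepressor, silence E-box genes. In T-ALL, MYC is a principal target of NOTCH1, and MYB, a factor that keeps lymphoid precursors proliferating, is often duplicated or overexpressed. MIR17HG is the host transcript of the miR-17-92 cluster, a known MYC target that yields microRNAs against BCL2L11 and other growth-restraining genes.

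The 6 hairpins of the cluster lie within 787 bases of MIR17HG on chromosome 13. Their main mature products are shown because the host transcript is the member with the largest fall in these data, and because their seeds define what the cluster can pair with. RefSeq (GRCh38.p14) gives the following sequences, 5′ to 3′, with the seed (bases 2 to 8) in capitals.
hsa-miR-17-5p: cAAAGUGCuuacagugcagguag
hsa-miR-20a-5p: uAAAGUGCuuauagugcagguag
hsa-miR-18a-5p: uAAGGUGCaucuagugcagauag
hsa-miR-19a-3p: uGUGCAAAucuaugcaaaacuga
hsa-miR-19b-3p: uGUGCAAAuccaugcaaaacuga
hsa-miR-92a-3p: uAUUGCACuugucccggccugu
The 6 products fall into 4 seeds. miR-17-5p and miR-20a-5p share AAAGUGC, from which miR-18a-5p differs within the seed, miR-19a-3p and miR-19b-3p share GUGCAAA, and miR-92a-3p has AUUGCAC. The libraries were made from poly(A) RNA and measure the host transcript, not these products. The exons of the 6 microRNA genes are annotated 100% within those of MIR17HG on the same strand, so their 0 counts in all 4 libraries give no measure of their level.

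The libraries held 7609427 to 8140391 counts in genes, and the 2 lanes of a library differed no more than sampling noise allows (chi-square per degree of freedom 0.990 to 1.02, p = 0.0845 to 0.786). Levels are given in CPM (counts scaled to a fixed library total) after TMM scaling, a correction for differences in composition between libraries. All 11 T-lineage markers were detected in every library, with a summed level of 2458 CPM in treated and 3306 CPM in control CUTLL1, and of 2491 CPM in treated and 2576 CPM in control TIB153. Myeloid markers summed to at most 3.37 CPM in any library, erythroid markers to at most 0.130 CPM. The B-cell markers MS4A1 and CD22 were at 0 in every library, and the B-cell sum of 14.2 CPM in treated and 10.9 CPM in control CUTLL1, and of 104.5 CPM in treated and 79.1 CPM in control TIB153, came almost wholly from CD79A. With 1 library per group there was no test within a line, and log2 ratios there carry a 95% interval that covers counting error only. The test was edgeR's quasi-likelihood test across the 2 lines with the line as a block, which has 1 residual degree of freedom and borrows its estimate of spread from all genes. Each SE given after ± is the one implied by this test, so it rests mostly on that borrowed spread. It does not measure how far the 2 lines differ for a gene. In bulk RNA of this kind, fewer cells expressing a gene and less RNA per cell cannot be told apart.

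Across both lines, 2 members rose with PKF118-310, MXD1 and MYB, and 1 fell, MIR17HG. Of all genes tested, 6.11% rose and 6.78% fell. MXD1, an antagonist of MYC, was 2.93-fold higher, MYB was 1.80-fold higher and MIR17HG was 3.54-fold lower. All 3 lost the call in a fit without the line as a block (adjusted p = 0.721 to 0.741, edgeR). Within lines, calls of at least 2-fold with an interval excluding no change were made for MYCN and MXD1 (higher, background 4.8%) and MIR17HG (lower, background 2.21%) in CUTLL1, and for MYB and MXD1 (higher, background 5.47%) and MIR17HG (lower, background 2.12%) in TIB153. Intervals alone lay above no change for 4 members and below it for 3 in CUTLL1 (background 23.3% and 23.9%), and for 3 and 3 in TIB153 (background 25.2% and 28.7%). With so few members, these shares describe the genes named and are not a test of the network.

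**Figure D1:**
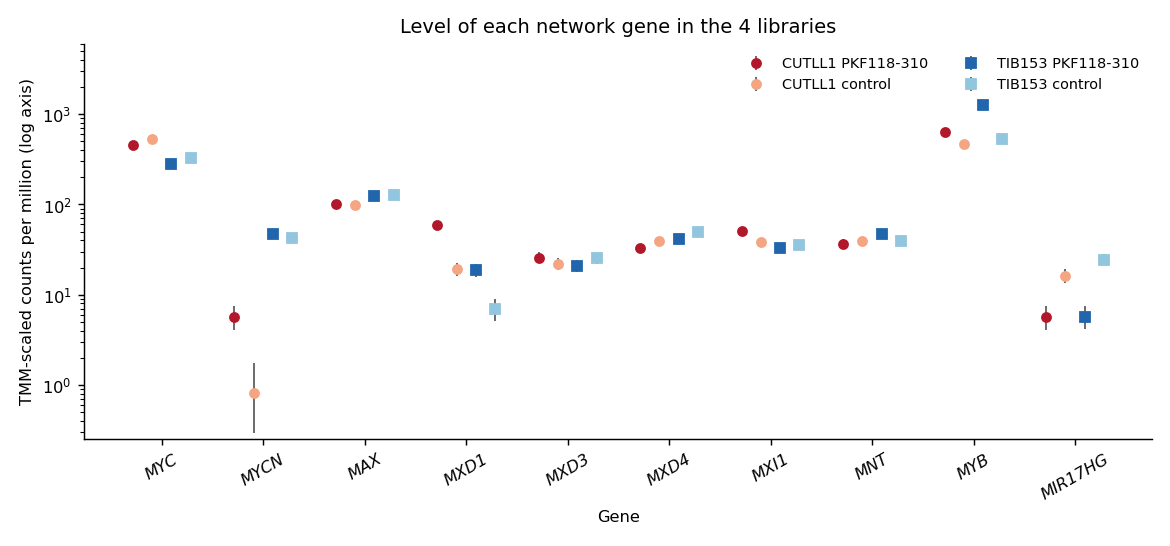
TMM-scaled CPM (log axis) of each gene in the 4 libraries, with 95% exact Poisson intervals of the counts. MYC and MYB lie at 281 CPM or more throughout, MYCN is 0.809 CPM in CUTLL1 control cells against 42.6 CPM in TIB153 control cells, and MIR17HG is at 5.61 and 5.72 CPM in the treated cells of both lines.

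MYC (chr8:127735434-127741434, plus strand, hg38) was the most abundant member per kb of exons in 3 of the 4 libraries. It stood at 460 CPM (3691 counts) in PKF118-310-treated CUTLL1 cells and 536 CPM (3971 counts) in CUTLL1 control cells, a log2 ratio of −0.22 (−0.29 to −0.16). In TIB153 it stood at 281 CPM (2356 counts) in treated cells and 324 CPM (2495 counts) in control cells, a log2 ratio of −0.21 (−0.29 to −0.13). Treated cells were thus slightly lower in both lines, by 1.16-fold in each, and the line difference in log2 ratio was −0.01 (−0.12 to 0.09). The fit across lines gave −0.21 ± 0.12 (log2, SE, n = 2 lines), which did not pass (adjusted p = 0.271, edgeR), and 38.2% of genes had a smaller p.

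MYCN (chr2:15940564-15947007, plus strand), the paralog of MYC best known from neuroblastoma, differed between lines far more than with treatment. In CUTLL1, 45 counts (5.61 CPM) were found in treated cells and 6 counts (0.809 CPM) in control cells, with 22 and 23 counts in the lanes of the treated library and 1 and 5 counts in those of the control library. This is a log2 ratio of 2.69 (1.56 to 4.31), or 6.46-fold, at a level where MYCN made up 1.39% of MYC plus MYCN per kb in treated and 0.174% in control cells. In TIB153, MYCN was at 47.6 CPM (400 counts) in treated and 42.6 CPM (328 counts) in control cells, a log2 ratio of 0.16 (−0.05 to 0.38), and made up 16.4% of MYC plus MYCN in treated and 13.2% in control cells. The log2 ratios of the lines differed by 2.53 (1.37 to 4.17, counting error only), and across lines MYCN did not pass (0.71 ± 0.52, adjusted p = 0.444, edgeR). MYCNOS, an RNA from the opposite strand that shares 3.77% of MYCN's exonic bases, had 16 counts in treated and 4 in control TIB153 cells and 0 in both CUTLL1 libraries.

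MAX (chr14:65006174-65102695, minus strand), the partner that MYC, MYCN, the MXD proteins and MNT all need, gave ratios close to no change. It stood at 100.4 CPM in treated and 99.8 CPM in control CUTLL1, and at 124 CPM in treated and 129 CPM in control TIB153. The log2 ratios were 0.01 (−0.14 to 0.15) and −0.05 (−0.18 to 0.08), and the fit across lines gave −0.02 ± 0.12 (adjusted p = 0.930, edgeR). Per kb of exons, MAX was 0.148 of MYC in treated and 0.126 in control CUTLL1, and 0.300 of MYC in treated and 0.269 in control TIB153.

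Of the antagonists, MXD1 (MAD1; chr2:69897688-69942945, plus strand), a repressor that is known to increase as blood cells differentiate, was the only one that passed across lines. It stood at 59.3 CPM (476 counts) in treated and 19.2 CPM (142 counts) in control CUTLL1, a log2 ratio of 1.63 (1.36 to 1.91) or 3.09-fold. In TIB153 it stood at 18.7 CPM (157 counts) in treated and 6.88 CPM (53 counts) in control cells, a log2 ratio of 1.43 (0.98 to 1.92) or 2.70-fold. The treated library was the higher in both lines, yet the level in treated TIB153 cells was about that of CUTLL1 controls. MXD1 rose by 1.55 ± 0.20 on the log2 scale (SE, n = 2 lines, adjusted p = 0.000768, edgeR), which ranked 42 of 13280 genes by p, and the line difference of 0.19 (−0.37 to 0.73) included no difference.

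The promoter of MXD1, shown because it belongs to the member with the smallest p, spans chr2:69914859-69915158 in GRCh38.p14 on the plus strand (RefSeq, 250 bases before to 50 after a start site that lies inside the longer gene model used for counting). The promoter windows of the members other than MYC were searched on both strands for 4 sequences. These were CACGTG, the E-box preferred by MYC and MAX, and the variant CACATG. The others were the core CTTTGA that TCF and LEF factors recognise and the E2F-type site TTTGGCG. No match overlapped another. These letters occur in 7.26%, 11.1%, 12.9% and 1.92% of 35116 promoter windows of the same length. The MYCN window held CTTTGA on the opposite strand, 9 bases before the start site, and TTTGGCG 176 bases before it. The MXD3 window held CTTTGA 186 bases before its start site. These matches describe letters and not binding. None of the 4 sequences was found in the MXD1 window, which is therefore printed without capitals.
MXD1: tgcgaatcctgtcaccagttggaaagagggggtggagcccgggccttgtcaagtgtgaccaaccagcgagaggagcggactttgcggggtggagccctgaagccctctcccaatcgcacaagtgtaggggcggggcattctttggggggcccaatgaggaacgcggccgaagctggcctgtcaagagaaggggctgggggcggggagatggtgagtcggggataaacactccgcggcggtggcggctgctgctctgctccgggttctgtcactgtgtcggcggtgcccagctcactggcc

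The other antagonists did not pass in either direction. MXD4 (chr4:2247432-2262294, minus strand) was at 32.5 CPM (261 counts) in treated and 39.1 CPM (290 counts) in control CUTLL1, and at 41.3 CPM (347 counts) in treated and 49.1 CPM (378 counts) in control TIB153. Its log2 ratios of −0.27 (−0.51 to −0.02) and −0.25 (−0.46 to −0.03) were alike, and across lines it gave −0.26 ± 0.16 (adjusted p = 0.320, edgeR). MXI1, MNT and MXD3 gave log2 ratios of opposite sign in the 2 lines. MXI1 (MXD2; chr10:110207605-110287365, plus strand) was at 51.1 CPM in treated and 37.9 CPM in control CUTLL1 (log2 ratio 0.43, 0.21 to 0.65), and at 33.3 CPM in treated and 35.8 CPM in control TIB153 (−0.10, −0.35 to 0.14). MNT (chr17:2384060-2401118, minus strand), the antagonist present in most tissues, was at 36.5 CPM in treated and 39.0 CPM in control CUTLL1 (−0.09, −0.33 to 0.14), and at 47.4 CPM in treated and 39.6 CPM in control TIB153 (0.26, 0.04 to 0.48). Intervals thus lay above no change for MXI1 in CUTLL1 and for MNT in TIB153, as they did for 23.3% and 25.2% of all genes. Neither gene passed across lines (0.17 ± 0.18, adjusted p = 0.579, for MXI1 and 0.08 ± 0.17, adjusted p = 0.782, for MNT, edgeR). MXD3 (chr5:177301461-177312757, minus strand), known from proliferating cells, was at 25.7 CPM in treated and 22.1 CPM in control CUTLL1, and at 21.0 CPM in treated and 25.2 CPM in control TIB153. Its intervals all included no change (0.21, −0.09 to 0.52, and −0.27, −0.57 to 0.04), and across lines it gave −0.03 ± 0.21 (adjusted p = 0.950, edgeR). MXD3 shares 18% of its exonic bases with RAB24 on the same strand and 22.5% with PRELID1 on the other, so its counts are less certain than those of the other members.

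MXD4 and MNT were the only members other than MYC, whose promoter was not searched, with CACGTG in a promoter window. The 30 bases around each match are shown with the E-box in capitals, since both genes encode factors that bind this sequence.
MXD4, chr4:2262330-2262359, minus strand: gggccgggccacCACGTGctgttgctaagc
MNT, chr17:2401236-2401265, minus strand: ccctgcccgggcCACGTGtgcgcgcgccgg
Both genes carry the letters and neither passed across lines; a match is a description of the letters and not of binding.

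**Figure D2:**
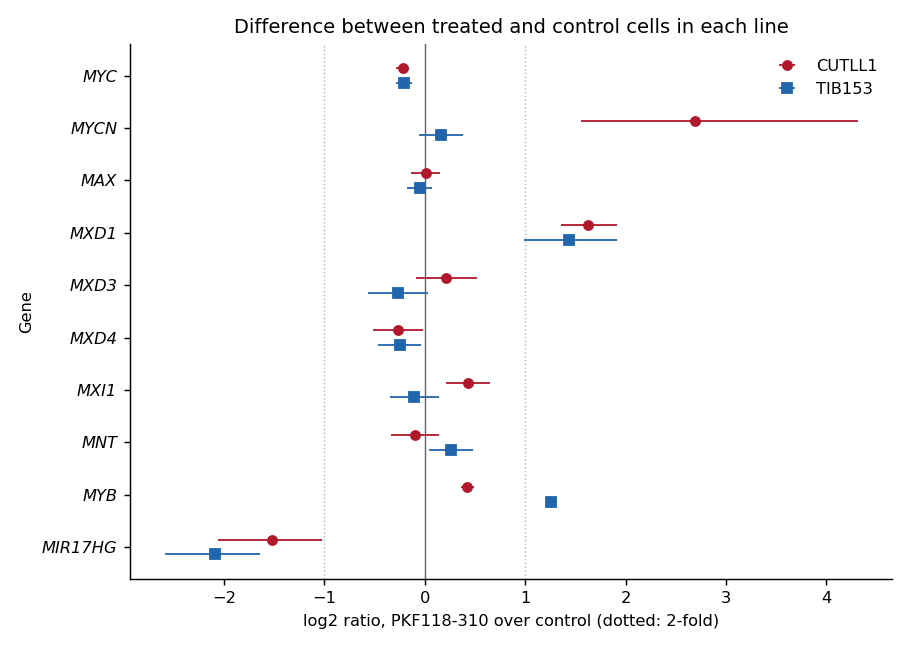
The log2 ratio of PKF118-310-treated over control cells for each gene, drawn as red circles for CUTLL1 and blue squares for TIB153, where bars are 95% counting intervals and dotted lines stand at 2-fold. MXD1 lies beyond the upper line and MIR17HG beyond the lower line in both lines, MYB reaches 1.26 in TIB153 against 0.43 in CUTLL1, and MYCN is 2.69 in CUTLL1 with a wide interval.

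Per kb of exons, the 5 antagonists together (MXD1, MXD3, MXD4, MXI1 and MNT) stood at 34.2 in treated and 25.5 in control CUTLL1, and at 25.5 in treated and 25.2 in control TIB153, in CPM per kb. Set against MYC on the same scale, this sum was 0.223 of MYC in treated and 0.143 in control CUTLL1, and 0.273 of MYC in treated and 0.234 in control TIB153. The ratio leaves out MYCN. In TIB153 MYCN made up 16.4% of MYC plus MYCN in treated and 13.2% in control cells, and in CUTLL1 1.39% and 0.174%. The treated library had the higher ratio in both lines, and the 2 lanes of a library lay within 0.222 and 0.225 in treated and 0.142 and 0.144 in control CUTLL1, and within 0.269 and 0.278 in treated and 0.229 and 0.238 in control TIB153. MXD1 made up 27.3% of the sum in treated and 11.8% in control CUTLL1, and 11.5% in treated and 4.29% in control TIB153. These sums are of RNA, are from 1 library per group and were not tested.

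**Figure D3:**
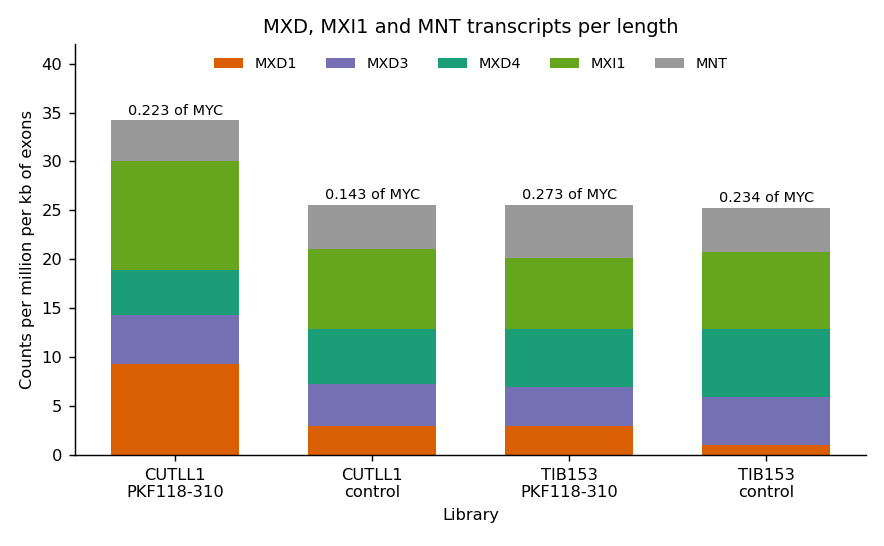
Stacked CPM per kb of exons of MXD1, MXD3, MXD4, MXI1 and MNT in each library, with the sum as a ratio to MYC above each bar. The sum is 34.2 in treated and 25.5 in control CUTLL1 cells and about level in TIB153 (25.5 in treated and 25.2 in control), and the MXD1 segment is the larger in the treated cells of both lines.

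MYB (chr6:135181315-135219173, plus strand) rose across lines, by unequal amounts in the 2. In TIB153 it reached 1257 CPM (10553 counts) in treated cells, against 525 CPM (4041 counts) in control cells, a log2 ratio of 1.26 (1.21 to 1.31) or 2.39-fold. In CUTLL1 it was at 630 CPM (5058 counts) in treated and 469 CPM (3478 counts) in control cells, a log2 ratio of 0.43 (0.36 to 0.49) or 1.34-fold. Treated TIB153 thus stood apart from the other 3 libraries, and there MYB overtook MYC as the most abundant member per kb of exons (229 CPM per kb for MYB and 93.5 CPM per kb for MYC). That order depends on the lengths, which cover all annotated exons of a gene. In CPM, MYB was already above MYC in TIB153 control cells (525 and 324 CPM) and in treated CUTLL1 cells (630 and 460 CPM). Across lines MYB rose by 0.84 ± 0.19 on the log2 scale (SE of the fit, n = 2 lines, adjusted p = 0.0221, edgeR). The log2 ratio was lower in CUTLL1 than in TIB153 by −0.83 (−0.92 to −0.75), an interval of counting error only, as a line-by-treatment term leaves no residual degree of freedom. The antisense gene MYB-AS1 had at most 2 counts in any library. The MYB promoter, shown because the gene is a member that rose, lies at chr6:135181058-135181357 (GRCh38.p14, plus strand, RefSeq), with its single match, TTTGGCG 61 bases before the start site, in capitals.
MYB: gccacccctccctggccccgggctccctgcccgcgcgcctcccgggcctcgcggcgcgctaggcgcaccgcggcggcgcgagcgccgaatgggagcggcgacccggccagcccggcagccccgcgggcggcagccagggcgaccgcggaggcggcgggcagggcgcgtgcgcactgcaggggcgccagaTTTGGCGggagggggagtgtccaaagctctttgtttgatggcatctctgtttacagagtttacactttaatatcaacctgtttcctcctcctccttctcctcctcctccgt

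MIR17HG (chr13:91347820-91354579, plus strand) fell across lines. Treated CUTLL1 cells had 45 counts (5.61 CPM), against 120 counts (16.2 CPM) in CUTLL1 controls, a log2 ratio of −1.52 (−2.06 to −1.02). Treated TIB153 cells had 48 counts (5.72 CPM), against 189 counts (24.5 CPM) in TIB153 controls, a log2 ratio of −2.09 (−2.59 to −1.64). The 2 treated libraries were at almost the same level and both lay below both controls, whose levels differed from each other. Treated cells were 2.87-fold lower in CUTLL1 and 4.26-fold lower in TIB153, and by ratio MIR17HG ranked 137 and 23 from the bottom of 13280 genes. Across lines the gene fell by 1.82 ± 0.27 on the log2 scale (SE, n = 2 lines, adjusted p = 0.00179, edgeR), and the line difference of 0.57 (−0.14 to 1.28) included no difference. The annotated microRNA genes printed above account for 13.5% of its exonic bases. Its promoter, shown as that of the member that fell, spans chr13:91347437-91347736 (GRCh38.p14, plus strand, RefSeq). It holds no CACGTG, and its CACATG, in capitals, lies 8 bases into the transcript counted from the RefSeq start site. That start site and the match both lie before the start of the gene model used for counting.
MIR17HG: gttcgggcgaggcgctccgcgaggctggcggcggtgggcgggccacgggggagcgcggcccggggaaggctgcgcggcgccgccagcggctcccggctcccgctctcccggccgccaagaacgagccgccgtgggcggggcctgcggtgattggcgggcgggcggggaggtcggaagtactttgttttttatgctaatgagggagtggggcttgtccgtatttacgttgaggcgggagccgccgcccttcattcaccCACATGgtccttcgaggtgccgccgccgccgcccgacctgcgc

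The control libraries were compared to see how the lines differed before treatment, CUTLL1 over TIB153. At 2-fold, MXD1 was called higher (background 6.12%) and MYCN lower (background 9.45%) in CUTLL1. MYCN was 48.7-fold lower, with 0.809 CPM in CUTLL1 control cells and 42.6 CPM in TIB153 control cells (log2 ratio −5.60, −7.17 to −4.58). MXD1 was 2.77-fold higher, with 19.2 CPM in CUTLL1 control cells and 6.88 CPM in TIB153 control cells (1.47, 1.01 to 1.96). MYC was 1.65-fold higher, with 536 CPM in CUTLL1 control cells and 324 CPM in TIB153 control cells (0.73, 0.65 to 0.80), below the limit for a call. The CUTLL1 control thus held the higher MYC and MXD1 and only a trace of MYCN. Intervals alone lay above no difference for 2 members and below it for 5 (background 27.6% and 27.8%). MIR17HG (−0.60, −0.94 to −0.26), MAX (−0.37, −0.51 to −0.23), MXD4 (−0.33, −0.55 to −0.10) and MYB (−0.16, −0.23 to −0.10) had log2 ratios below 0 with intervals excluding no difference. The intervals of MXD3 (−0.19, −0.50 to 0.12), MXI1 (0.08, −0.16 to 0.33) and MNT (−0.02, −0.26 to 0.21) included it. These ratios share their control libraries with the treatment ratios above, so the 2 sets of values are not independent.

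**Figure D4:**
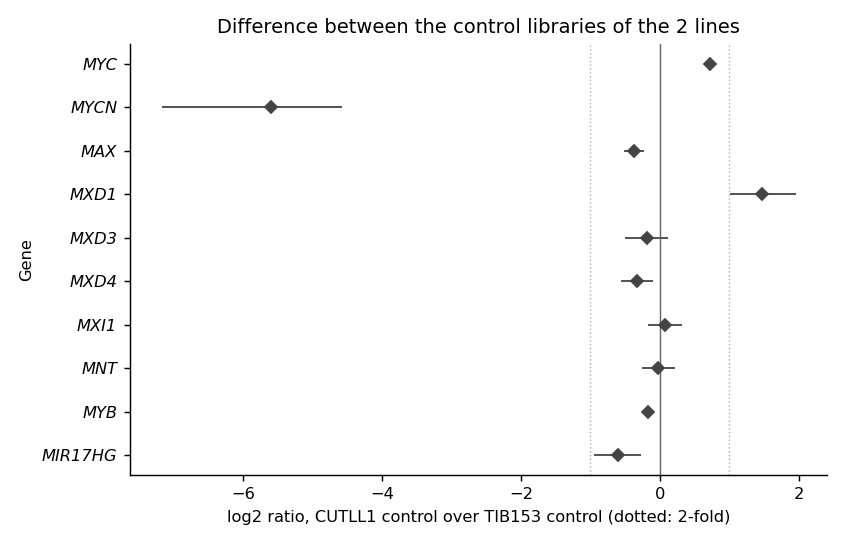
The log2 ratio of the CUTLL1 control over the TIB153 control library for each gene, with 95% counting intervals and dotted lines at 2-fold. MYCN is at −5.60 and MXD1 at 1.47, MYC is at 0.73 and the other 7 genes lie between −0.60 and 0.08.

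Genes with a pattern over the 4 libraries like that of a member were found by the distance between centred log2 levels among 11396 genes. Genes with clone names, among them many non-coding RNAs, and names starting with LINC or LOC were passed over when the nearest were taken. The nearest to MYC were PLD3, RRP1B and PSME4, at distances of 0.04, 0.05 and 0.06 on the log2 scale. FAM83F, MSMO1 and SPATA20 were nearest to MYB, at 0.10, 0.12 and 0.15. MSMO1, an enzyme of cholesterol synthesis, had 95.3 CPM in treated and 43.2 CPM in control TIB153, and 53.1 CPM in treated and 38.3 CPM in control CUTLL1, the same order as MYB. MIR17HG had no such close neighbour among the genes kept: DNPH1, STOM and SLC25A13 lay at 0.51, 0.55 and 0.62. It had only 45 to 189 counts per library, far fewer than MYC or MYB. The part of counting noise in its distances was not tested. With 4 points, many genes share such a pattern, and no test was made.

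Genes known to act with MYC or on it gave mixed results, listed here beside the 6.11% of all genes that rose and the 6.78% that fell. None of 4 further MAX and MLX network genes passed in edgeR or DESeq2, and none had an unadjusted p below 0.05. MYCL, the third MYC paralog, gave log2 ratios of −0.20 in CUTLL1 and −1.02 in TIB153 (adjusted p = 0.223, edgeR), MLX gave −0.40 and 0.00, and MLXIP gave 0.15 and 0.21. Of 10 genes of the SIN3 corepressor through which MXD proteins silence genes, 1 fell, the histone-binding subunit RBBP7 (−0.83 ± 0.12, adjusted p = 0.00144, edgeR). Of 11 MYC cofactors, 3 rose, among them the acetyltransferase KAT5 (0.58 ± 0.16), which shares 38.6% of its exonic bases with RNASEH2C on the other strand, and ZBTB17 (0.51 ± 0.14), the MIZ1 protein through which MYC represses. The ATPase RUVBL1 fell by 0.94 ± 0.13. Among 14 genes of MYC protein turnover, 4 fell and none rose. Those that fell included the ubiquitin ligases STUB1 (−0.74 ± 0.15), which shares 42.4% of its exonic bases with JMJD8 on the other strand, HUWE1 (−0.51 ± 0.15) and SKP2 (−0.51 ± 0.13). FBXW7, on the same list, was higher in both lines (log2 ratios 0.41, 0.21 to 0.61, in CUTLL1 and 0.53, 0.34 to 0.73, in TIB153). It did not pass across lines (adjusted p = 0.0529, edgeR). Of 11 NOTCH pathway and other upstream regulators of MYC in T-ALL, 2 rose, HES1 among them, and 4 fell (NOTCH3, DTX1, TCF7 and NOTCH1).

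Among the genes named here, KAT5, ZBTB17, STUB1, HUWE1, SKP2 and HES1 did not pass in DESeq2 (adjusted p = 0.0585 to 0.231), where 1 of the 11 cofactors rose, as it did in edgeR with lane 2 alone.

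Of the non-coding RNAs next to MYC, PVT1 alone was tested. It had 65 counts in treated and 54 in control CUTLL1 and 66 in treated and 43 in control TIB153, log2 ratios of 0.15 (−0.39 to 0.70) and 0.49 (−0.08 to 1.08), and did not pass (adjusted p = 0.536, edgeR). Within TIB153 controls its lanes held 10 and 33 counts. LINC00824 had 2 counts in treated and 5 in control CUTLL1 and 1 in each TIB153 library, and CASC11, CASC8 and CASC19 had at most 1.

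Listed genes that MYC is known to induce were more often lower than higher in treated cells. This list, like the others here, was chosen with earlier results of these data known and was not tested as a set. Of its 35 genes, 16 fell and 1 rose across lines, where 6.78% of all genes fell and 6.11% rose. The median log2 ratio was −0.43 in CUTLL1 and −0.40 in TIB153, against 0.00 and −0.01 over all genes tested. Lactate dehydrogenase LDHA fell by 0.94 ± 0.14 (adjusted p = 0.00142), the purine synthesis enzyme PAICS by 0.86 ± 0.13 (adjusted p = 0.00165), nucleolin NCL by 0.83 ± 0.14 (adjusted p = 0.00289) and the mitochondrial chaperone HSPD1 by 0.75 ± 0.14 (adjusted p = 0.00483, all log2 and edgeR). NCL, for example, had 11968 counts in treated and 18072 in control CUTLL1, and 8909 in treated and 15730 in control TIB153, so that treated cells were lower in each line. E2F2, a cell-cycle transcription factor, was the 1 gene that rose (0.45 ± 0.12, adjusted p = 0.0300, edgeR), and did not pass in DESeq2 (adjusted p = 0.136). Counting intervals lay below no change for 30 of the 35 in CUTLL1 and 25 in TIB153, where the background was 23.9% and 28.7%.

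Among 10 measured genes that MYC is known to repress, 3 rose and none fell, against 6.11% and 6.78% of all genes. Counting intervals lay above no change for 6 and below it for 1 in CUTLL1 (background 23.3% and 23.9%), and for 5 and 2 in TIB153 (background 25.2% and 28.7%). CDKN1C was lower in both lines (log2 ratios −0.76, −1.36 to −0.19, in CUTLL1 and −0.78, −1.51 to −0.09, in TIB153). It did not pass across lines (adjusted p = 0.138, edgeR). CDKN1A, the cell-cycle inhibitor p21, had 220 counts in treated and 27 in control CUTLL1 and 40 in treated and 12 in control TIB153, and rose by 2.43 ± 0.37 (adjusted p = 0.00240, edgeR). CDKN1B, which encodes the inhibitor p27, rose by 0.69 ± 0.15 (adjusted p = 0.0126) and the ferritin chain FTH1 by 0.49 ± 0.13 (adjusted p = 0.0294, edgeR). FTH1 shares 62.4% of its exonic bases with BEST1 on the other strand, and CDKN1B did not pass in DESeq2 (adjusted p = 0.0503). The list medians were 0.41 in CUTLL1 and 0.36 in TIB153.

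Of 6 genes of the MYB family and its coactivators, 2 rose, where 6.11% of all genes rose. These were CREBBP, the acetyltransferase that MYB recruits (0.95 ± 0.13, adjusted p = 0.00125, edgeR), and the kinase HIPK1 (0.82 ± 0.13, adjusted p = 0.00215, edgeR). MYBL1 gave 0.93 in CUTLL1 and 0.27 in TIB153 and did not pass (adjusted p = 0.0911, edgeR). Of 10 genes described as MYB targets none rose and 2 fell, while MYB itself rose. The share of all genes that fell was 6.78%. Adenosine deaminase ADA had 2493 counts in treated and 4673 in control CUTLL1 and 6067 in treated and 8942 in control TIB153 (−0.85 ± 0.14, adjusted p = 0.00247, edgeR). RAG2, part of the recombinase of antigen receptor genes, gave −0.71 ± 0.20 (adjusted p = 0.0344, edgeR), shares 26% of its exonic bases with genes on the other strand and did not pass in DESeq2 (adjusted p = 0.262). The list median was −0.37 in CUTLL1 and −0.11 in TIB153. BCL2, a survival gene often named as a MYB target, gave 0.13 and 0.23 and did not pass (adjusted p = 0.443, edgeR).

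Among 14 measured genes known as targets of the microRNAs printed above, 3 rose and none fell, against 6.11% and 6.78% of all genes. TP53INP1, a p53-induced autophagy gene, had 49 counts in treated and 20 in control CUTLL1 and 157 in treated and 31 in control TIB153, and rose by 1.77 ± 0.35 (adjusted p = 0.00777, edgeR; 0.0712 in DESeq2). TP53INP1 had the larger ratio in TIB153, and CDKN1A, which also rose, stands too among the genes repressed by MYC. BCL2L11, which encodes the death-inducing protein BIM, gave 0.58 in CUTLL1 and −0.23 in TIB153 and did not pass (adjusted p = 0.533, edgeR). The list medians of 0.15 and 0.10 lay close to those of all genes. MCM7, the replication helicase gene that hosts the related miR-106b-25 cluster, fell by 0.45 ± 0.13 (adjusted p = 0.0346, edgeR; 0.0647 in DESeq2).

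**Figure D5:**
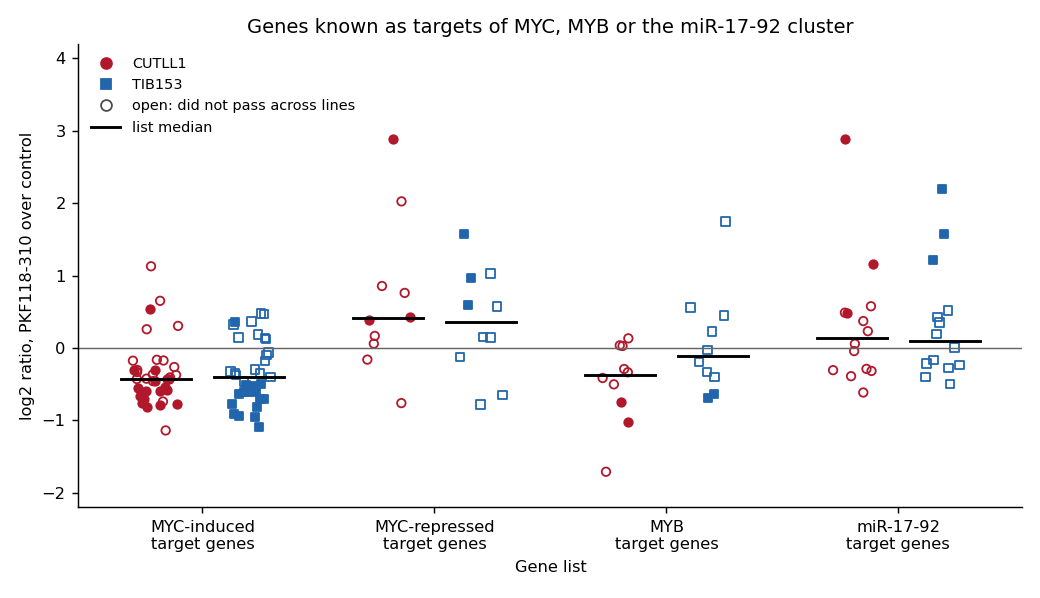
The log2 ratio of PKF118-310-treated over control cells for each measured gene of 4 lists, in CUTLL1 (red circles) and TIB153 (blue squares), filled where the gene passed across lines in edgeR, with bars at the list medians. The medians of MYC-induced genes are −0.43 and −0.40, those of MYC-repressed genes 0.41 and 0.36, those of MYB targets −0.37 and −0.11 and those of miR-17-92 targets 0.15 and 0.10.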

How the data were processed

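TRIzol-extracted RNA was captured on poly(T) beads, and a stranded mRNA kit was used for the libraries. What the authors deposited for each lane are raw read counts of 57189 genes, in whole numbers and without normalization. HISAT2, HTSeq, DESeq2 and hg38 are named in the submitters' processing notes. The strand setting of the counting was not stated in those notes or in the study's methods. The authors' tables of DESeq2 comparisons (fold changes, p-values and 8 columns of per-sample values that match no sample's labels) were not used.

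The 2 lanes of each library were summed and counted once, so n = 1 library per group. Whether the lines' cultures were independent is not stated. The p-values rest mostly on a spread pooled over all genes in these 4 libraries, since each gene has 1 residual degree of freedom. Genes were filtered with filterByExpr and scaled by TMM in edgeR 4.0.16 (limma 3.58.1, R 4.3.3), and tested with glmQLFit (robust) and glmQLFTest, the line as a block and Benjamini-Hochberg adjustment over 13280 genes at 0.05. Within-line log2 ratios used a pseudocount of 0.5 counts and an exact binomial 95% interval, and the line difference a Fisher conditional interval. Reads are not independent molecules, so intervals cover counting error only. Positions, exon lengths and shared bases come from GENCODE v29, whose coordinates fitted 99.5% of 11796 genes with at least 80 reads, with starts written 1-based. Scripts were tested on simulated data. DESeq2 1.42.0, other scalings, filters, single lanes, single lines and a fit without the block were the alternatives.

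The members and gene lists were chosen with earlier results of these data known. Genes named beside the 10 members were those of each list that passed, up to 4 per direction by size among genes reaching 5 CPM. Where none passed, they were up to 3 with the largest change. RNAs of the MYC locus with at least 3 reads were also named. So were the 3 nearest patterns to MYC, MYB and MIR17HG, with clone-named, LINC and LOC genes passed over. MYBL1, BCL2, BCL2L11, CDKN1C, FBXW7, CASC11, CASC8 and CASC19 were added after their values were seen. Some list genes that the rule names are not reported here by name, and the list counts include them.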

Additional observations from a re-analysis of the deposited data

Results flagged for a closer look

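Log2 ratios of opposite sign in the 2 lines were found for 4 members, and with 1 library per line and treatment the differences were not tested over replicates. CUTLL1 minus TIB153, the differences were 0.53 (0.20 to 0.87, counting error only) for MXI1, 0.48 (0.05 to 0.91) for MXD3, −0.35 (−0.68 to −0.03) for MNT and 0.059 (−0.14 to 0.25) for MAX. The interval for MAX included no difference, and those for MXI1, MXD3 and MNT did not. None of these 4 genes passed across lines in edgeR.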

How the results depend on the processing

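MXD1, MYB and MIR17HG passed under DESeq2's Wald test (adjusted p = 0.000626, 0.00181 and 0.00480) and under each other scaling, filter and single lane tried in edgeR. Without the replicate block, here the line, no member and no gene passed (0 higher, 0 lower; 889 genes and 1 member had an unadjusted p below 0.05; edgeR adjusted p = 0.741 for MXD1, 0.721 for MYB and 0.721 for MIR17HG), since the difference between lines then enters the spread. Leaving out 1 line gave values with no test, 0.43 to 1.26 for MYB, −2.09 to −1.52 for MIR17HG and 0.16 to 2.69 for MYCN. Against the main fit, directions near 0 turned for MAX (0.034 with total-count scaling, 0.0083 with at least 20 counts in every library and 0.0084 without TIB153). They also turned for MXD3 (0.029, 0.0034 and 0.21 in the same settings, 0.066 with lane 2 alone). MXI1 turned without CUTLL1 (−0.10) and MNT without TIB153 (−0.095). Leaving out the other line kept the main direction (−0.050 for MAX, −0.27 for MXD3 and 0.26 for MNT without CUTLL1, 0.43 for MXI1 without TIB153). None of these genes passed in any setting.

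Requiring 20 counts in every library removed MYCN, leaving 1 member higher in CUTLL1 and 0 lower between controls, where a 1.5-fold limit gave 2 higher and 2 lower. Over all genes, the 1.5-fold limit and the 20-count filter gave 1260 and 260 higher and 848 and 118 lower in CUTLL1, 1513 and 306 higher and 1303 and 159 lower in TIB153, and 1426 and 319 higher and 2013 and 526 lower between controls. Across lines, 812 genes rose and 900 fell in edgeR, against 194 and 249 in DESeq2. Lane 2 alone gave 592 lower. Total-count scaling shifted the median of all genes to 0.06 and gave 827 higher and 552 lower, so 60.0% of calls were higher, against 47.4% with TMM.

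With DESeq2, 10 of the 35 MYC-induced genes fell and none rose, 1 of 11 cofactors rose and none of the MYC turnover genes passed. Lane 2 alone also gave 1 cofactor higher, against 3 with both lanes. Depth limits MYCN in CUTLL1 controls (6 counts), MXD1 in TIB153 controls (53 counts) and MIR17HG in treated cells (45 and 48 counts).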
